A study of Mus musculus with 59 samples.

Results

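The genes described here are 9 that fibroblasts of the meninges, the membranes around the brain, are known to express: Col1a1, Col1a2, Col3a1, Dcn, Bgn, Lum, Ogn, Foxc1 and Lox. They were chosen by symbol, with earlier results of these data known, and all 9 were among the 18088 genes of the deposited table and among the 17875 genes tested. The table holds RNA sequencing of prefrontal cortex, taken from C57BL/6J mice on postnatal day 25. Lithium, fluoxetine or vehicle had reached the pups through the milk of the dam from postnatal day 3 to 24. The mice were heterozygous for Ash1l (HT), a gene for a histone methyltransferase, or wild type (WT). The 12 groups were HT lithium females (4 libraries), HT lithium males, WT lithium females, WT lithium males, HT fluoxetine females, HT fluoxetine males, WT fluoxetine females, WT fluoxetine males, HT vehicle females, HT vehicle males, WT vehicle females and WT vehicle males (5 libraries each). Drug was given to the dam, and neither dams nor litters are labelled, so the p-values reflect no more than the spread among these samples, and effects of litter cannot be told apart from those of the drug.

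Fibroblasts of the meninges and of the sheaths of larger vessels make the fibrillar matrix of the brain surface, which the cortex itself largely lacks. Type I and type III collagen form the fibrils, small leucine-rich proteoglycans coat them and set their thickness and spacing, and lysyl oxidase cross-links them. The forkhead factor FOXC1 is needed in mice for the meninges to form. In bulk tissue, fewer cells of a type and less RNA per cell cannot be told apart.

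Members that move together can be looked at beside the sequence ahead of their starts, and the pair below is shown because Col3a1 was among the genes most tied to the other members and Foxc1 the one least tied to them. RefSeq promoter windows matched 5 of the 9 genes, and the 2 printed stretches (GRCm38.p6, exon bases left out) end at the first base before the gene. Capitals mark matches to the motif TATAA, to the motif CCAAT or to the motif GGGCGG, each searched on both strands.
Col3a1, chr1:45311288-45311537, plus strand: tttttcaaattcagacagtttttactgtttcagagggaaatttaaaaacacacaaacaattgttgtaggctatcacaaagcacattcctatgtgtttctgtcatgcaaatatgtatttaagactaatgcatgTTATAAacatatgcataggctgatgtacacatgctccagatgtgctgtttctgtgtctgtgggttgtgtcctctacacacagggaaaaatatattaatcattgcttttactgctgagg
Foxc1, chr13:31806396-31806632, plus strand: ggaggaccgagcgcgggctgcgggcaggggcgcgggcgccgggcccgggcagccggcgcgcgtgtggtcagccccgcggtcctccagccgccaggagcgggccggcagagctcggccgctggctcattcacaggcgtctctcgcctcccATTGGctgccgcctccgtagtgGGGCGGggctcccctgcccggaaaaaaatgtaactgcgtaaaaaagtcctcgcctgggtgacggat
The Col3a1 stretch had a GC content of 35.2% and held TATAA on both strands in overlapping positions. The Foxc1 stretch had a GC content of 72.6% and held 1 CCAAT, on the minus strand, and 1 GGGCGG. Over 250 bases before the start, TATAA was found in 22.8%, CCAAT in 33.9% and GGGCGG in 32.7% of 32851 RefSeq promoters, so each of these matches was common. Of the other matched genes, Bgn and Ogn each passed in 6 of 8 pairs in the test of pairs below. Bgn had a GC content of 64.4%, 3 GGGCGG and no TATAA, and Ogn had 42.0% and TATAA. Col1a2 had no bases left outside exons. A link between these sequences and the correlations was not tested.

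Depth was 24.5 to 36.3 M recovered reads per library (median 28.0 M). Ash1l itself lay between 3641 and 4382 normalised read counts (reads divided by the size factor of the library) in the 29 HT libraries, and between 4703 and 6218 in 29 of the 30 WT libraries. The library labelled WT vehicle female replicate 3 had 3557 and therefore went against its genotype label. It also had a summed normalised count of 8385 over the choroid plexus markers, against at most 1393 in any other library, and the highest Col3a1, Dcn, Bgn and Foxc1 counts of all 59 libraries. WT vehicle male replicate 2, which earlier results of these data had set apart, had the lowest Col1a1 and Col1a2. Results are given for all 59 libraries, and without these 2 where that changes a call or moves a count by over 1.5 times. In the dissected tissue 9 markers of cortical excitatory neurons summed to a median normalised count of 69410 in lithium, 66458 in fluoxetine and 65778 in vehicle libraries, against 3220, 3687 and 3976 for the 9 genes described here. Whether tissue of the striatum, a region outside the label, was present was not tested, but 13 genes listed as its markers were also summed. They came to 9831 to 30620 (median 12055) in lithium, 10469.7 to 26982 (median 11704) in fluoxetine and 10233 to 20383 (median 10983) in vehicle libraries. In 11 libraries this sum was over 1.5 times the median of all 59, 5 of them lithium (WT male replicates 2 and 3, HT male replicate 4, WT female replicate 4 and HT female replicate 1), 4 fluoxetine (WT male replicates 1, 4 and 5 and WT female replicate 3) and 2 vehicle (WT female replicate 3 and HT male replicate 5). The averages over the strata were therefore also computed without these 11 libraries, a choice made after seeing the data.

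Per kilobase of exon, Ogn (osteoglycin) had the highest mean normalised count over the 59 libraries at 105, followed by Bgn (biglycan) at 93.0, Col1a2 at 89.8, Col1a1 at 89.6, Dcn (decorin) at 73.6, Col3a1 at 42.7, Lum (lumican) at 30.4, Foxc1 at 28.3 and Lox (lysyl oxidase) at 13.6. The length used was the union of all annotated exons of a gene, 12426 bases for Col1a2, 6563 for Col1a1 and 2566 for Ogn. This union can exceed the length of the expressed transcripts, so the order of the genes is uncertain. Col1a1 and Col1a2, which encode the 2 chains of type I collagen, were at nearly the same level on this scale. Unscaled, the means ran from 65.0 for Lox to 1116 for Col1a2, and the lowest library still held 33 reads of Lox and 37 of Lum. The span of Ogn overlaps that of Cenpp, a gene also in the table, and whether the 2 share reads was not tested.

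Over all libraries, 7 of the 9 genes were lower with lithium, of which 2, Foxc1 and Lox, also passed without the libraries high in striatal markers. Averaged over the 4 strata of genotype and sex, Foxc1, Lox, Ogn, Col3a1, Dcn, Bgn and Col1a1 fell by 0.35 to 0.49 on the log2 scale against vehicle (limma, adjusted p under 0.05), while Col1a2 and Lum, at -0.19 and -0.22, did not pass. Without the 11 libraries high in striatal markers 2 of the 9 genes passed, Foxc1 (-0.41, limma, adjusted p = 2.9e-05) and Lox (-0.45, limma, adjusted p = 0.00306). The other 5 were then at -0.34 for Col1a1 (adjusted p = 0.109), -0.31 for Col3a1 (0.0618), -0.31 for Dcn (0.104), -0.29 for Bgn (0.0519) and -0.29 for Ogn (0.179). In the comparison of all libraries 5.74% of all genes tested were called lower and 7.39% higher. The median change of the 9 genes was -0.38, beside 0.0039 over all genes tested, and 9 of 9 were below 0. Because the 9 were chosen with earlier results of these data known, their comparison with all genes is a description and not an independent test. All log2 changes are on the scale of log2(normalised count + 1), with standard errors, and p-values carry the Benjamini-Hochberg adjustment for every gene tested.

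Foxc1, the transcription factor, showed the smallest p of the 9. In HT females its normalised counts were 121, 116, 104 and 157 with lithium, 155, 166, 193, 185 and 173 with fluoxetine, and 191, 176, 161, 198 and 188 with vehicle. In HT males they were 142, 105, 133, 152 and 154 with lithium, 163, 134, 162, 156 and 159 with fluoxetine, and 175, 163, 218, 178 and 189 with vehicle. In neither HT stratum did the lithium and vehicle libraries overlap. In WT females the counts were 155, 131, 141, 137 and 149.5 with lithium, 174, 172, 159, 162 and 198 with fluoxetine, and 182, 139, 251, 178 and 162 with vehicle. In WT males they were 122, 135, 155, 169.8 and 154 with lithium, 176, 171, 192, 175 and 137 with fluoxetine, and 196, 219, 199, 181 and 213 with vehicle. The WT male groups of lithium and vehicle did not overlap, and those of WT females did, at the low WT vehicle female replicate 2. Averaged over the strata Foxc1 fell by 0.45 ± 0.058 (limma, adjusted p = 6.17e-07), and 19 of 19 lithium libraries were below the mean of their vehicle group. The 4 lithium groups had the 4 lowest and the 4 vehicle groups the 4 highest Foxc1 means of the 12 groups, with the fluoxetine groups between.

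Lox, the cross-linking enzyme, had the largest change. In HT males its normalised counts were 47.0, 55.9, 51.1, 58.2 and 42.9 with lithium, 59.01, 44.9, 51.9, 62.0 and 64.6 with fluoxetine, and 84.8, 124, 98.9, 76.5 and 112 with vehicle. In HT females they were 51.5, 45.6, 55.7 and 38.4 with lithium, 73.0, 56.4, 73.5, 75.2 and 57.7 with fluoxetine, and 87.7, 78.3, 75.2, 55.2 and 91.5 with vehicle. The HT male vehicle libraries stood above every lithium and fluoxetine library of that stratum, and in HT females 1 vehicle library reached into the lithium range. In WT females Lox had 76.1, 67.4, 59.4, 58.2 and 38.2 with lithium, 52.3, 62.5, 59.9, 45.4 and 57.3 with fluoxetine, and 80.1, 44.8, 81.5, 68.0 and 69.4 with vehicle. In WT males it had 55.6, 57.6, 46.0, 63.4 and 68.7 with lithium, 86.9, 38.7, 74.0, 75.4 and 77.4 with fluoxetine, and 63.4, 50.7, 77.2, 55.2 and 75.5 with vehicle. In both WT strata the groups overlapped. Averaged over the strata Lox fell by 0.49 ± 0.091 (limma, adjusted p = 0.000166), in 17 of 19 lithium libraries.

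Among the fibrillar collagens, Col3a1 changed most. In HT females its normalised counts were 345, 396, 356 and 349.8 with lithium, 468, 431, 428, 460.3 and 419.6 with fluoxetine, and 391.7, 511, 411, 398 and 625 with vehicle. In HT males they were 376, 354, 259, 325 and 339 with lithium, 370.0, 453, 452, 208 and 298 with fluoxetine, and 370.0, 449, 577, 457 and 578 with vehicle. In both HT strata 1 lithium library reached just above the lowest vehicle library. In WT females they were 476, 347, 436, 327 and 331 with lithium, 422, 507, 392.5, 356 and 389 with fluoxetine, and 594, 380.2, 737, 516 and 464 with vehicle. In WT males they were 397, 448, 305, 367 and 403 with lithium, 467, 292, 397, 451 and 399 with fluoxetine, and 532, 266, 561, 288 and 637 with vehicle. The WT male vehicle libraries split into 3 high and 2 low ones, which lay below all WT male lithium libraries. Averaged over the strata Col3a1 fell by 0.38 ± 0.096 (limma, adjusted p = 0.00488), with 19 of 19 lithium libraries below the mean of their vehicle group.

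Of the type I collagen genes, Col1a1 fell about as much as Col3a1 on average, and Col1a2 moved less. Col1a1 ranged from 382 to 761 (median 472) over the 19 lithium libraries, 437 to 941 (median 561) over the 20 fluoxetine libraries and 349 to 1129 (median 586) over the 20 vehicle libraries. Col1a2 ranged from 859 to 1284 (median 1000.1) with lithium, 843 to 1349 (median 1123) with fluoxetine and 668 to 1627 (median 1160.0) with vehicle. The vehicle range enclosed the lithium range for both genes. Col1a1 fell by 0.35 ± 0.11 on average (limma, adjusted p = 0.0365), a call that ended at adjusted p = 0.0617 when limma was fitted to the lithium and vehicle groups alone, and at adjusted p between 0.0502 and 0.0676 when any 1 of 14 libraries was left out (HT lithium female replicate 2, HT lithium male replicates 2 and 3, WT lithium female replicates 2 and 4, WT lithium male replicates 3, 4 and 5, HT vehicle female replicate 5, HT vehicle male replicate 3, WT vehicle female replicates 1 and 3, and WT vehicle male replicates 3 and 5). Col1a2 was -0.19 ± 0.082 (limma, adjusted p = 0.129), and 0.0385 without WT vehicle male replicate 2.

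Of the 4 small leucine-rich proteoglycans, 3 fell with lithium over all libraries, and none of the 4 passed without the libraries high in striatal markers. Decorin, which binds collagen fibrils and growth factors such as TGF-beta, had Dcn counts of 294, 337, 244 and 351 in HT lithium females, against 499.9, 458, 535, 505 and 624 in HT vehicle females, with no overlap. Over all strata Dcn ranged from 244 to 449 (median 371) with lithium, 256 to 671 (median 408) with fluoxetine and 202 to 716 (median 498) with vehicle, and it fell by 0.38 ± 0.11 (limma, adjusted p = 0.0139; 18 of 19 libraries). Ogn, whose product also binds fibrils, had 172, 173, 259 and 158 in HT lithium females and 364, 324, 302, 371 and 299 in HT vehicle females, again without overlap. Over all strata Ogn ranged from 158 to 318 (median 231) with lithium, 157 to 490.0 (median 272) with fluoxetine and 122 to 416 (median 323) with vehicle, and it fell by 0.39 ± 0.12 (limma, adjusted p = 0.0239; 17 of 19 libraries). Biglycan, the close relative of decorin, had Bgn counts of 380.4 to 659 (median 488) with lithium, 291 to 808 (median 538) with fluoxetine and 468 to 932 (median 619.8) with vehicle. Bgn fell by 0.36 ± 0.091 (limma, adjusted p = 0.00476; 18 of 19 libraries), and the lithium and vehicle ranges overlapped over most of the lithium libraries. Lumican, the scarcest of the 4, had Lum counts of 40.6 to 102 (median 66.7) with lithium, 40.5 to 118 (median 74.2) with fluoxetine and 47.0 to 121 (median 84.3) with vehicle. Lum was -0.22 ± 0.13 (limma, adjusted p = 0.267), with 13 of 19 lithium libraries below the mean of their vehicle group and ranges that nearly coincided.

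Group means of 4 of these genes are given as normalised count ± SD (n = 4 in HT lithium females and 5 in the other groups). Col1a1 averaged 442 ± 42.0 in HT lithium females, 453 ± 44.3 in HT lithium males, 572 ± 114 in WT lithium females and 546 ± 126 in WT lithium males. It averaged 573 ± 172 in HT vehicle females, 629.8 ± 168 in HT vehicle males, 752 ± 277 in WT vehicle females and 695 ± 289 in WT vehicle males. Each Col1a1 vehicle mean was above the lithium mean of the same genotype and sex, and the WT vehicle SDs were the largest. Dcn averaged 306 ± 48.3 in HT lithium females, 376 ± 45.6 in HT lithium males, 399.6 ± 34.7 in WT lithium females and 373 ± 54.9 in WT lithium males. With vehicle Dcn averaged 524 ± 62.1 in HT vehicle females, 488 ± 96.1 in HT vehicle males, 491 ± 150.4 in WT vehicle females and 431 ± 168 in WT vehicle males. The Dcn gap was widest in HT females and within the SD of the vehicle group in both WT strata. Ogn averaged 190.4 ± 46.1 in HT lithium females, 231 ± 46.5 in HT lithium males, 252 ± 38.2 in WT lithium females and 235 ± 41.0 in WT lithium males. With vehicle Ogn averaged 332 ± 34.0 in HT vehicle females, 342 ± 49.9 in HT vehicle males, 268 ± 73.5 in WT vehicle females and 276 ± 119.5 in WT vehicle males. For Ogn, too, the HT gaps exceeded the SDs and the WT gaps did not. Bgn averaged 453 ± 48.3 in HT lithium females, 459 ± 40.1 in HT lithium males, 542 ± 58.6 in WT lithium females and 536 ± 74.5 in WT lithium males. With vehicle Bgn averaged 641 ± 169 in HT vehicle females, 649 ± 114 in HT vehicle males, 633 ± 179 in WT vehicle females and 671 ± 157 in WT vehicle males. The Bgn means were lower with lithium in all 4 strata, by more than the larger SD of the pair in HT females and HT males and by less in WT females and WT males.

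**Figure D1:**
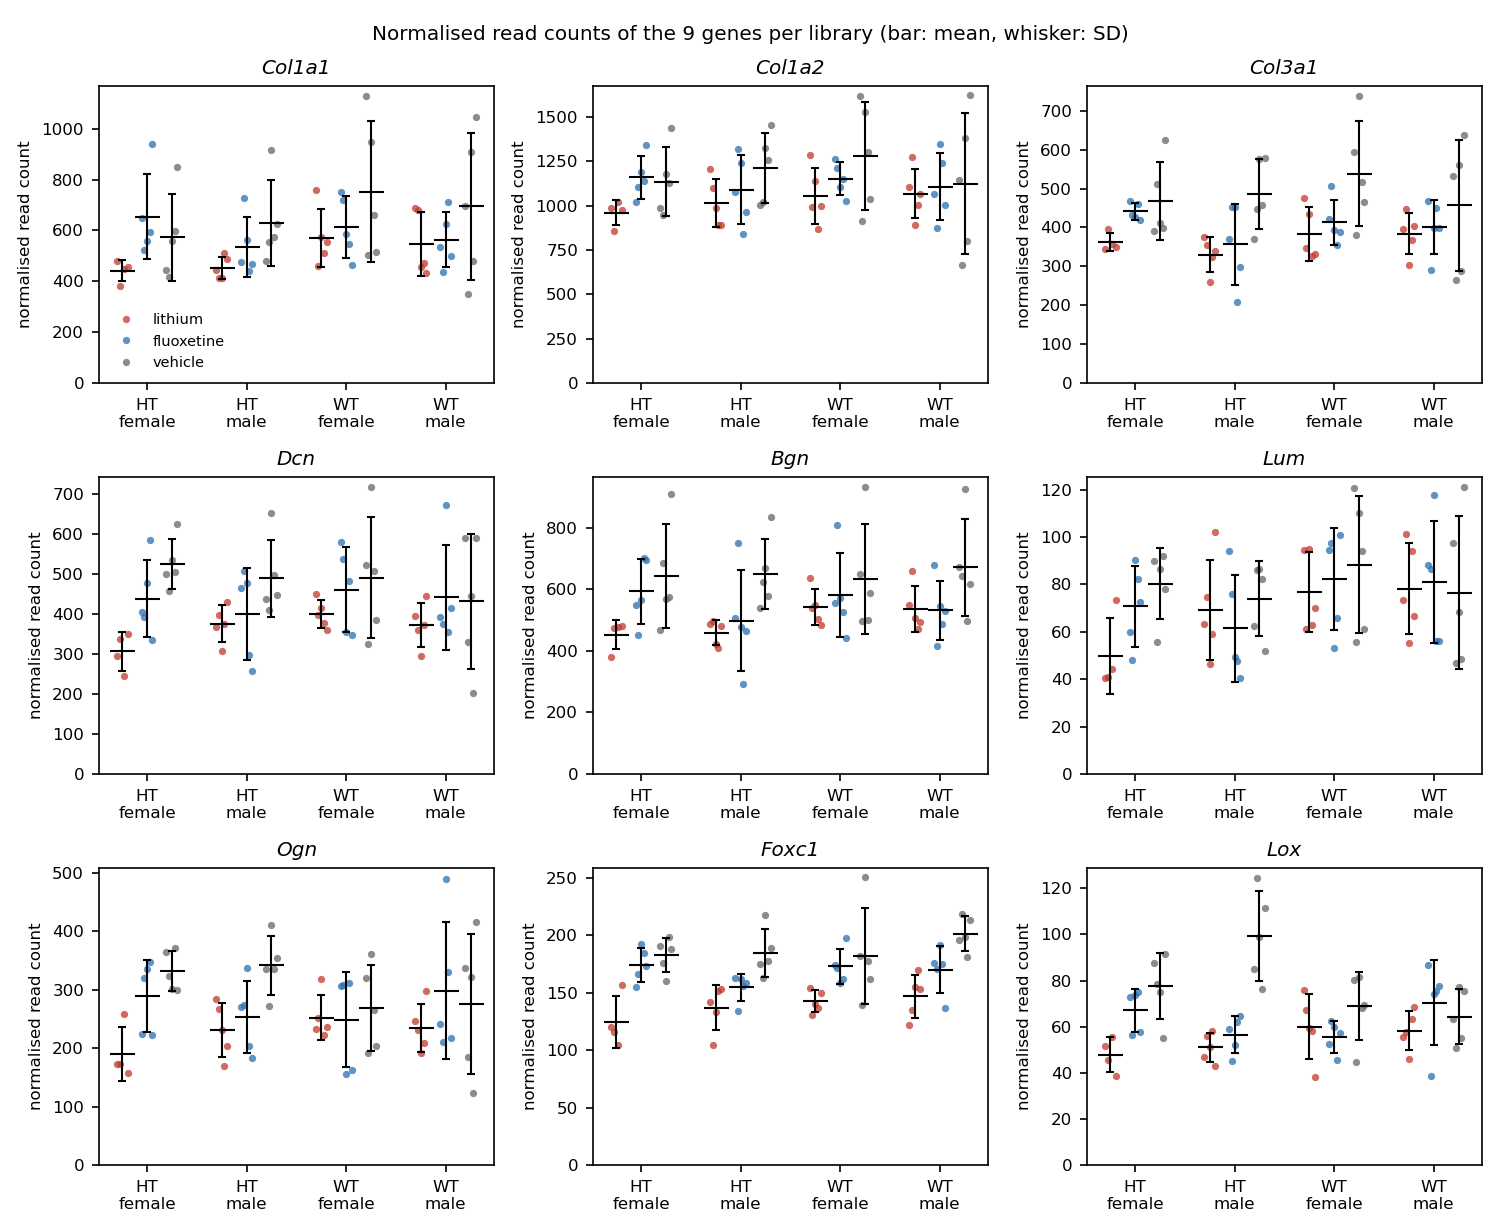
Normalised read counts of the 9 genes (vertical axes, from 0) in each of the 59 libraries, grouped by genotype and sex (horizontal axes) with lithium left of fluoxetine left of vehicle; points are libraries, bars means and whiskers SD. The Foxc1 lithium points lie between 104 and 169.8, 9 of them below every vehicle point, and the WT vehicle groups spread widest for the collagens.

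Within single strata the calls were fewer. In HT females 3 of 9 genes were lower with lithium (limma, 1.16% of all genes tested were called lower there). Dcn fell by 0.78 ± 0.23 (limma, adjusted p = 0.0443), Lox by 0.68 ± 0.19 (limma, adjusted p = 0.0378) and Foxc1 by 0.56 ± 0.12 (limma, adjusted p = 0.0137), while Ogn, at -0.82 ± 0.25, had an adjusted p of 0.0576. Ogn passed with DESeq2 (adjusted p = 0.0248), with the stricter filter on low counts (limma, adjusted p = 0.0448), with limma fitted to these 2 groups alone (adjusted p = 0.0221) and without HT vehicle female replicate 5 (limma, adjusted p = 0.0491). The 3 calls depended on single libraries. The call of Dcn ended without any 1 of 8 of the 9 libraries, HT lithium female replicate 4 being the exception (adjusted p up to 0.182), and that of Lox without any 1 of 8, HT vehicle female replicate 3 being the exception (adjusted p up to 0.103). That of Foxc1 ended without HT lithium female replicate 2 or 3 or HT vehicle female replicate 2 or 4 (adjusted p up to 0.0879). When limma was fitted to these 2 groups alone, the adjusted p of Lox was 0.0708. In HT males Lox alone was called, falling by 0.93 ± 0.18 (limma, adjusted p = 0.00554, 0.112% of genes called lower), and Foxc1 passed as well with DESeq2 (adjusted p = 0.0406). In WT males Foxc1 alone was called, falling by 0.46 ± 0.11 (limma, adjusted p = 0.0467, 0.185% of genes called lower). That call ended at an adjusted p of 0.103 without the 2 libraries set apart, at 0.388 when limma was fitted to the 2 groups alone, and at up to 0.168 without WT lithium male replicate 1, 2, 3 or 4 or WT vehicle male replicate 2, 3 or 5. In WT females none of the 9 was called by limma (0.694% of genes called lower), 2 were at an unadjusted p under 0.05, and Foxc1, at -0.33 ± 0.11, had an adjusted p of 0.0923. Foxc1 in WT females passed without WT vehicle female replicate 2 (adjusted p = 0.0447) and with DESeq2 (adjusted p = 0.0410).

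Averaged over the sexes, the change with lithium was larger in HT than in WT mice for 9 of 9 genes, with a median difference of -0.23 on the log2 scale. Within a sex this did not hold for every gene. In females, mean Col3a1 was 362 with lithium and 467 with vehicle in HT, against 383 and 538 in WT. Over all genes tested 51.9% of these differences were below 0, with a median of -0.0076. The 9 genes also moved together across libraries, so 9 of 9 does not count independent genes. No difference of the 9 passed the test of the interaction. The nearest were Lox at -0.64 ± 0.18 (limma, unadjusted p = 0.00088, adjusted p = 0.419) and Ogn at -0.61 ± 0.24 (limma, adjusted p = 0.445). These were the only 2 of the 9 at an unadjusted p under 0.05, and limma called 0.00% of all genes in this interaction, while edgeR and DESeq2 called none of the 9. For the difference of lithium effects between females and males, limma, edgeR and DESeq2 called none of the 9, and none was at an unadjusted p under 0.05.

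Fluoxetine was compared with the same vehicle libraries as lithium, so the values of both drugs rest on shared data. Averaged over the strata, 1 of the 9 genes was called lower with fluoxetine, beside 6.60% of all genes tested called lower and 6.94% called higher. Lox fell by 0.29 ± 0.089 (limma, adjusted p = 0.0213, 16 of 20 libraries). In WT males, however, mean Lox was higher with fluoxetine, at 70.5 ± 18.5 against 64.4 ± 11.8 with vehicle (SD, n = 5 each). The other strata had lower Lox means with fluoxetine. Col3a1 was -0.25 ± 0.094, Bgn -0.24 ± 0.089 and Foxc1 -0.15 ± 0.057, with adjusted p of 0.0628, 0.0607 and 0.0619 in limma. The call count was 3 with edgeR, where Col3a1 and Foxc1 also passed, and 4 with DESeq2, where Bgn did too. Without the 2 libraries set apart it was 2, with Col3a1 at an adjusted p of 0.0348. The remaining genes ranged from -0.16 for Ogn to -0.051 for Col1a2, with a median over the 9 of -0.15. Within strata, Lox in HT males fell by 0.79 ± 0.18 (limma, adjusted p = 0.00561, 3.16% of genes called lower), and no other member was called in any stratum (lower in 0.00% of all genes in HT females, 1.59% in WT females and 0.436% in WT males). Of the 9, none was at an unadjusted p under 0.05 in HT or WT females and 1 was in WT males, Foxc1.

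The drugs were also compared directly, without vehicle libraries. Foxc1 was lower by 0.29 ± 0.058 on the log2 scale in lithium than in fluoxetine mice (limma, adjusted p = 0.000338), in 19 of 19 lithium libraries, and was the only member called, beside 6.18% of all genes lower. The other 8 were between -0.23 and -0.11, all below 0. Lox, at -0.19 ± 0.091, passed only without WT fluoxetine male replicate 2 (limma, adjusted p = 0.0415).

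**Figure D2:**
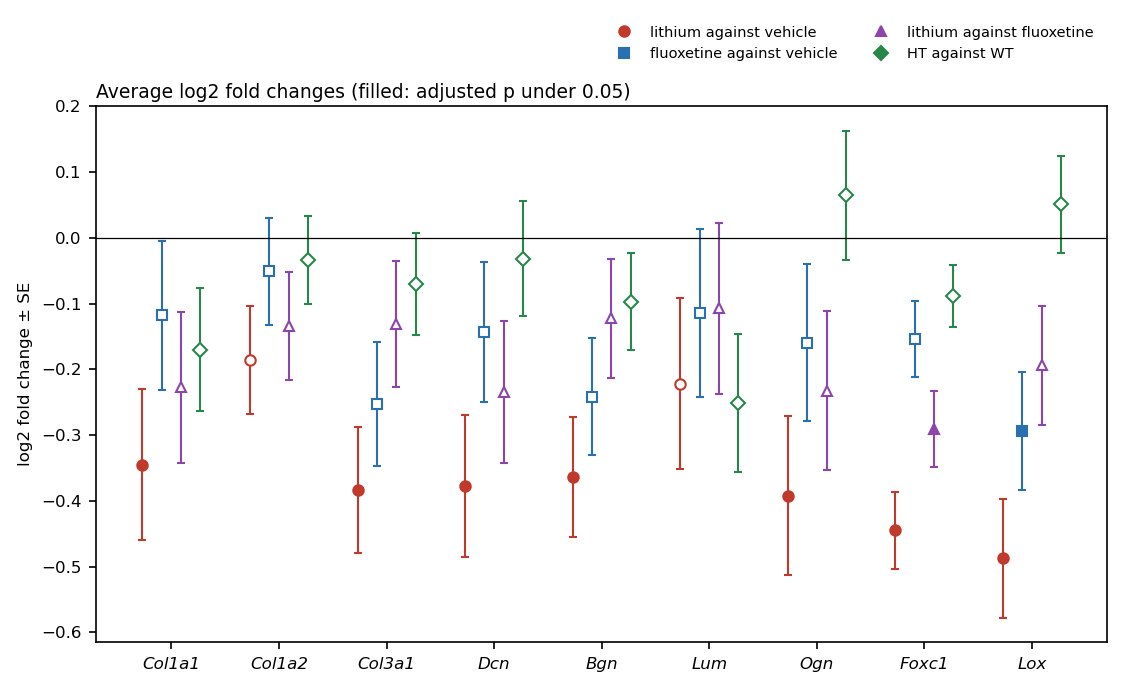
Average log2 fold changes with standard errors (vertical axis) of the 9 genes (horizontal axis) for lithium against vehicle, fluoxetine against vehicle, lithium against fluoxetine and HT against WT; filled symbols have a limma adjusted p under 0.05. All 59 libraries are included; lithium against vehicle is filled for 7 genes (2 without the 11 libraries high in striatal markers), and Foxc1 is the only gene filled for lithium against fluoxetine.

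Genotype and sex separated the 9 genes less. Averaged over drugs and sexes, none of the 9 differed between HT and WT (limma, 0.358% of all genes called), with a median of -0.070 and a range from -0.25 for Lum to 0.065 for Ogn; edgeR and DESeq2 also called none. Lum, at 67.5 in HT and 80.5 in WT, was the only one at an unadjusted p under 0.05 (0.0208, adjusted p = 0.480 in limma). In vehicle males Lox was higher in HT, at 99.3 ± 19.5 against 64.4 ± 11.8 in WT (SD, n = 5 each), a log2 difference of 0.61 ± 0.18 with all 5 HT libraries above the WT mean, but its adjusted p in limma was 0.705 (0.00% of genes called higher). Between females and males the values lay between -0.067 for Lox and 0.13 for Col3a1, and none of the 9 passed with limma, edgeR or DESeq2 or had an unadjusted p under 0.05 (limma, 0.117% of all genes called).

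Of the 12 groups, HT lithium females had the lowest mean for 8 of the 9 genes, and HT lithium males for Col3a1. The highest mean was in a vehicle group for 9 of 9 genes. The ratio of the highest to the lowest group mean was 2.08 for Lox (47.8 in HT lithium females against 99.3 in HT vehicle males) and 1.33 for Col1a2 (959.9 in HT lithium females against 1281 in WT vehicle females). In the order of the 12 means, each of the 11 steps between neighbouring groups was smaller than the larger SD of the 2 groups, except 1 step for Dcn and 1 for Lox.

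Libraries of 1 group also differed among themselves, and the 9 genes moved together in this. After subtraction of the group means from log2(normalised count + 1), 36 of 36 gene pairs correlated positively over the 59 libraries (median Pearson r = 0.462), and 25 of 36 passed by a two-sided permutation test within groups, adjusted by Benjamini-Hochberg over the 36 pairs. Without the 2 libraries set apart 22 passed and 35 were positive. Col1a1 and Col1a2, the chains of 1 protein, had the highest correlation (Pearson r = 0.847, Spearman rho = 0.826, permutation p = 1e-05, the smallest that 100000 permutations can give, adjusted p = 5.14e-05), with r = 0.804 without the 2 libraries farthest from the median. Col1a2 and Col3a1 had r = 0.817 (rho = 0.756) and Dcn and Ogn r = 0.757 (rho = 0.683), both with the same permutation p of 1e-05 for r. The first principal component held 53.5% of the variance of the 9 genes.

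Foxc1 and Lox were less tied to the others. Of their 8 pairs each, Foxc1 passed in 2, with Lum (r = 0.404, adjusted p = 0.00900) and Dcn (r = 0.368, adjusted p = 0.0123), and Lox in 3, with Col3a1 (r = 0.470, adjusted p = 0.00183), Col1a2 (r = 0.367, adjusted p = 0.0203) and Bgn (r = 0.303, adjusted p = 0.0467), all by the permutation test, while each of the other 7 genes passed in 6 or 7. The correlation with the mean of the other 8 genes was 0.302 for Foxc1 and 0.346 for Lox, against 0.847 for Col1a2, 0.835 for Col3a1 and 0.791 for Dcn. Per unit change of that mean, Foxc1 changed by 0.21 and Lox by 0.40, while Dcn changed by 1.22 and Col1a1 by 1.18. Foxc1 and Lox did not correlate with each other beyond the permutation test (r = 0.080, rho = 0.107, permutation p = 0.594). Foxc1 varied within groups with an SD of 0.18 on the log2 scale, near the median of 0.19 over all genes tested, while Lum, Ogn and Col1a1 had 0.42, 0.39 and 0.36. Counting error alone would give Lox an SD of 0.19 and Foxc1 0.12, against an observed SD of 0.28 for Lox, while Col1a2 had 0.044 from counting and 0.26 observed.

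**Figure D3:**
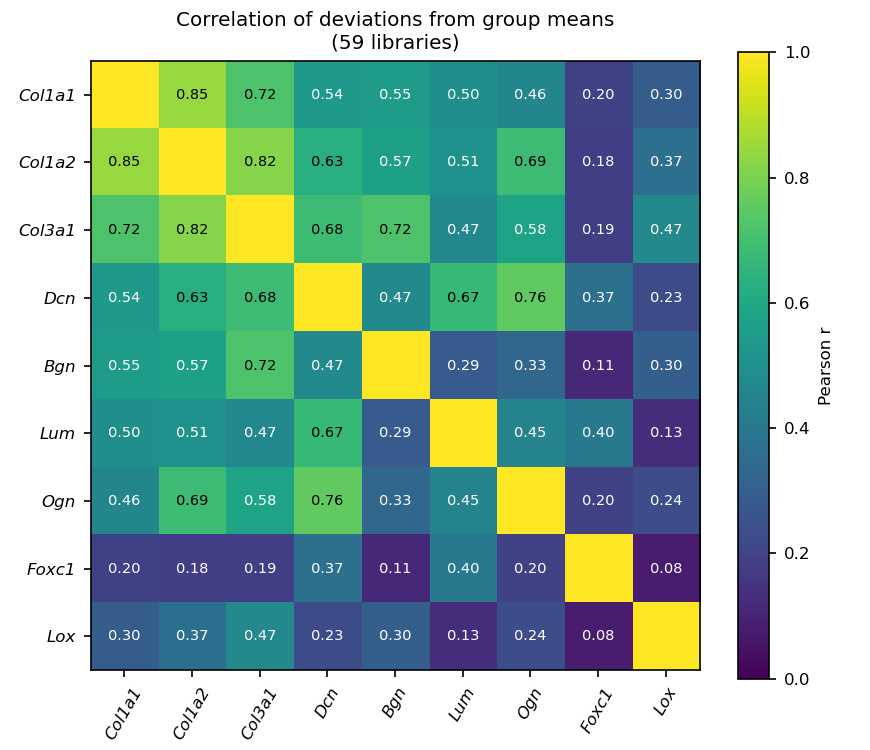
Pearson correlation of the deviations from the group means for each pair of the 9 genes over 59 libraries (colour scale from 0 to 1, values printed). The collagen pairs reach 0.847, and the Foxc1 row and column reach at most 0.404.

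The spread differed between groups. The mean of the 9 genes (log2) had an SD within groups of 0.13 in lithium, 0.21 in fluoxetine and 0.31 in vehicle libraries, a difference that was not tested. The wide vehicle spread lay in the WT groups, with an SD of 0.37 in WT vehicle females and 0.44 in WT vehicle males. HT vehicle females had 0.15 and HT vehicle males 0.17, beside 0.17 in WT lithium females and 0.24 in HT fluoxetine males. The libraries with the lowest and highest mean relative to their group were both WT vehicle males, replicate 4 at -0.53 and replicate 5 at 0.46. All 9 genes lay on the same side of the group mean in 8 of 59 libraries, of which 6 were vehicle libraries. WT vehicle male replicate 4 was low in Dcn (202) and Ogn (122), the lowest of all 59 libraries for both, and its Foxc1 (181) was the lowest of the WT vehicle males.

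**Figure D4:**
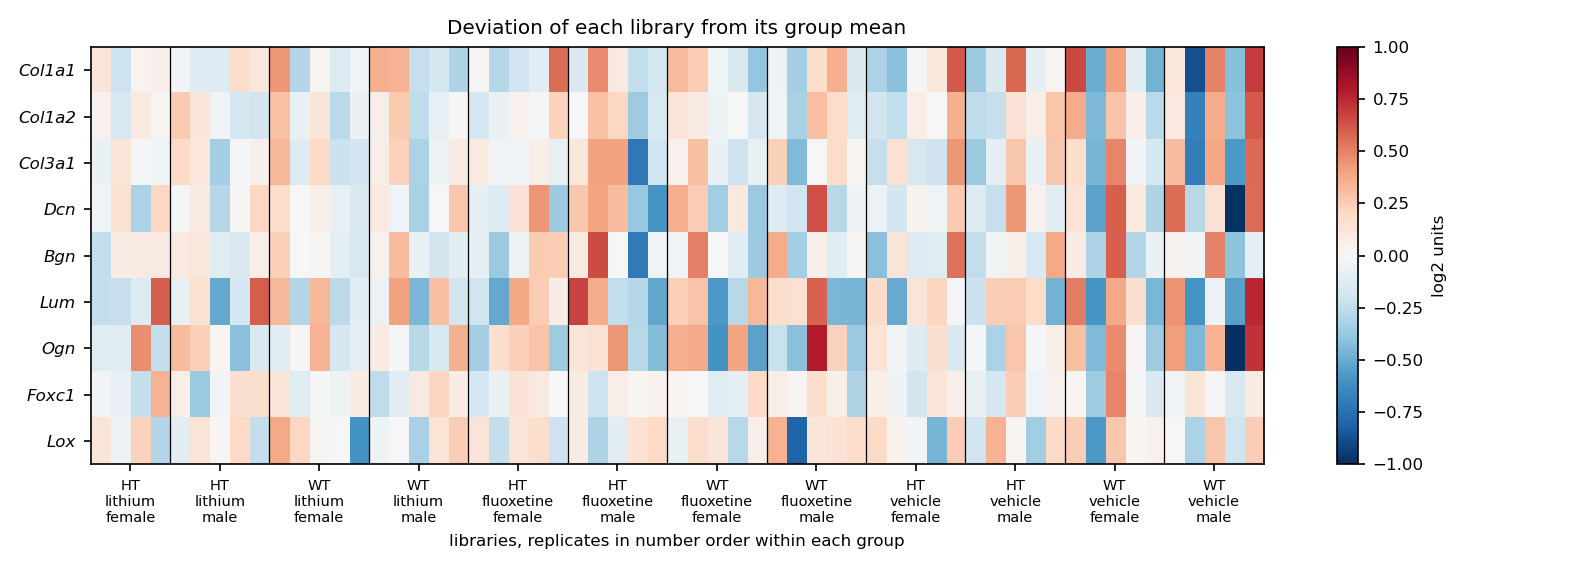
Deviation of each library from its group mean (colour, log2 units, limits -1 to 1) for the 9 genes (rows) over the 59 libraries (columns), ordered lithium, fluoxetine, vehicle. Several WT vehicle columns are shifted in most rows together, and the Foxc1 row, with an SD of 0.18, is the palest.

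The label of the genes was set beside other markers of the same cells, also listed with earlier results of these data known. The mean of the 9 genes followed the mean of 27 other meningeal genes closely across libraries of a group (Pearson r = 0.901, Spearman rho = 0.915 over 59 libraries that share depth and normalisation, given as a description), and 25 of those 27 were positively correlated with it one by one. Taken singly, Foxc1 (r = 0.317) and Lox (r = 0.292) followed the mean of that list much less closely. The remaining members ranged from r = 0.61 for Bgn to r = 0.83 for Dcn with that list. Over all lists, the highest r of Foxc1 was 0.363, with 16 endothelial markers. That of Lox was 0.379, with the 26 matrix assembly genes described below. The mean of the 9 genes followed 15 pericyte and smooth muscle markers with r = 0.718, 10 border macrophage markers with 0.608, 11 choroid plexus markers with 0.555 and 16 endothelial markers with 0.522. It ran against 9 markers of cortical excitatory neurons (r = -0.555), and had r between -0.162 and 0.285 with markers of oligodendrocytes, striatum, bone, red blood cells and astrocytes. Without the 2 libraries set apart, r was -0.294 against -0.162 for oligodendrocytes, -0.184 against -0.061 for striatum, 0.0869 against 0.144 for bone and 0.0855 against 0.186 for red blood cells. Among all named genes, the 10 most alike were Igf2 (r = 0.892), Vtn (0.824), Fmod (0.815), Aebp1 (0.814), Bmp6 (0.806), Aldh1a2 (0.804), Serpind1 (0.802), Thbd (0.801), Slc13a4 (0.794) and Slc22a6 (0.789). Igf2 encodes a growth factor, Aldh1a2 an enzyme of retinoic acid synthesis and Slc13a4 a sulfate transporter, and 6 of the 10 were among the other meningeal genes listed. Some genes are in more than 1 list: Fmod and Aspn are also among the other proteoglycans below, and Col5a2, Col6a3 and Col12a1 among the other collagens. The median r over all genes tested was -0.0065, and 249 genes (1.39%) had r over 0.5.

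With lithium, 7 of these 27 other meningeal genes fell and 1 rose, with a list median of -0.21 on the log2 scale. Foxd1 (-0.41, adjusted p = 0.0110), Slc13a3 (-0.37, adjusted p = 0.00532) and Osr1 (-0.36, adjusted p = 0.00431) were lower, as were Igf2 (-0.26, adjusted p = 0.0262) and Slc22a6 (-0.25, adjusted p = 0.0415), all by limma. Slc13a3 encodes a dicarboxylate transporter and Slc22a6 an organic anion transporter, and Foxd1 and Osr1 are transcription factors. Cemip, which takes part in hyaluronan breakdown, was higher (0.26, adjusted p = 0.0106 in limma). With fluoxetine 1 of the 27, Osr1, fell (-0.29, adjusted p = 0.0209) and 1 rose, Mgp (0.25, adjusted p = 0.0194), with a list median of -0.044. Between HT and WT, limma called none of the 178 listed genes that are not members, and 23 were at an unadjusted p under 0.05.

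Genes that process or accompany the fibrils did not move as 1 group. Of 26 matrix assembly genes, 5 fell and 2 rose with lithium (limma, list median -0.026). Loxl1 (-0.49, adjusted p = 0.00404) and Loxl2 (-0.37, adjusted p = 0.00337), relatives of Lox, and Plod2 (-0.39, adjusted p = 0.000281), a collagen lysyl hydroxylase, were lower. P4ha2 (0.23, adjusted p = 0.000720), a subunit of collagen prolyl hydroxylase, and Adamts2 (0.33, adjusted p = 0.00425), a procollagen protease, were higher. With fluoxetine 2 fell and 2 rose, among them P4ha1 at -0.33 (limma, adjusted p = 5.95e-08) and Adamts2 at 0.25 (limma, adjusted p = 0.0295). Of 8 other small leucine-rich proteoglycans, Fmod (-0.23, adjusted p = 0.0468) and Optc (-0.52, adjusted p = 0.0292) fell with lithium, and with fluoxetine Ecm2 fell (-0.25, adjusted p = 0.0285) and Nyx rose (0.40, adjusted p = 0.0204). Of 18 other collagens none fell with lithium, and Col4a1 (0.18, adjusted p = 0.0265) and Col4a2 (0.22, adjusted p = 0.0138), the chains of the basement membrane collagen IV, rose. With fluoxetine Col8a1 fell (-0.45, adjusted p = 0.000991) and Col5a3 rose (0.43, adjusted p = 0.00387), both by limma.

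Vessel markers moved with the drugs too. Of 16 endothelial markers 8 fell and 1 rose with lithium, and 9 fell and none rose with fluoxetine (limma), with list medians of -0.14 and -0.19. Tek, the angiopoietin receptor, was -0.34 with lithium (adjusted p = 1.86e-05) and -0.22 with fluoxetine (adjusted p = 0.00429). Of 15 pericyte and smooth muscle markers 5 fell with lithium, among them Rgs5 (-0.27, adjusted p = 0.00108) and Notch3 (-0.26, adjusted p = 0.0106), and with fluoxetine 2 fell and 2 rose. The summed normalised counts were 8224 to 10672 in lithium, 6947 to 10639 in fluoxetine and 8693 to 14291 in vehicle libraries for the pericyte and smooth muscle list. For the endothelial list they were 13954 to 18739 in lithium, 13294 to 17530.4 in fluoxetine and 15039.6 to 24801 in vehicle libraries. Both vehicle maxima came from WT vehicle female replicate 3, a library set apart above. The next highest vehicle sums were 11787 for the pericyte and smooth muscle list and 18843 for the endothelial list. None of 10 border macrophage, 11 choroid plexus, 5 red blood cell, 9 oligodendrocyte or 13 striatal markers passed with either drug by limma, with at most 2 of a list at an unadjusted p under 0.05. Of 6 bone and cartilage markers 1, Dmp1, rose with lithium (0.25, adjusted p = 0.0343) and none passed with fluoxetine. The striatal list had a median of 0.27 with lithium and 0.28 with fluoxetine. Of 10 astrocyte markers 3 fell and 2 rose with lithium, and 2 fell and 2 rose with fluoxetine, and of 9 cortical excitatory neuron markers 1 fell with lithium, Rorb (-0.23, adjusted p = 0.00358 in limma), and none passed with fluoxetine. The part of these cell types in the change of the 9 genes was not tested.

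**Figure D5:**
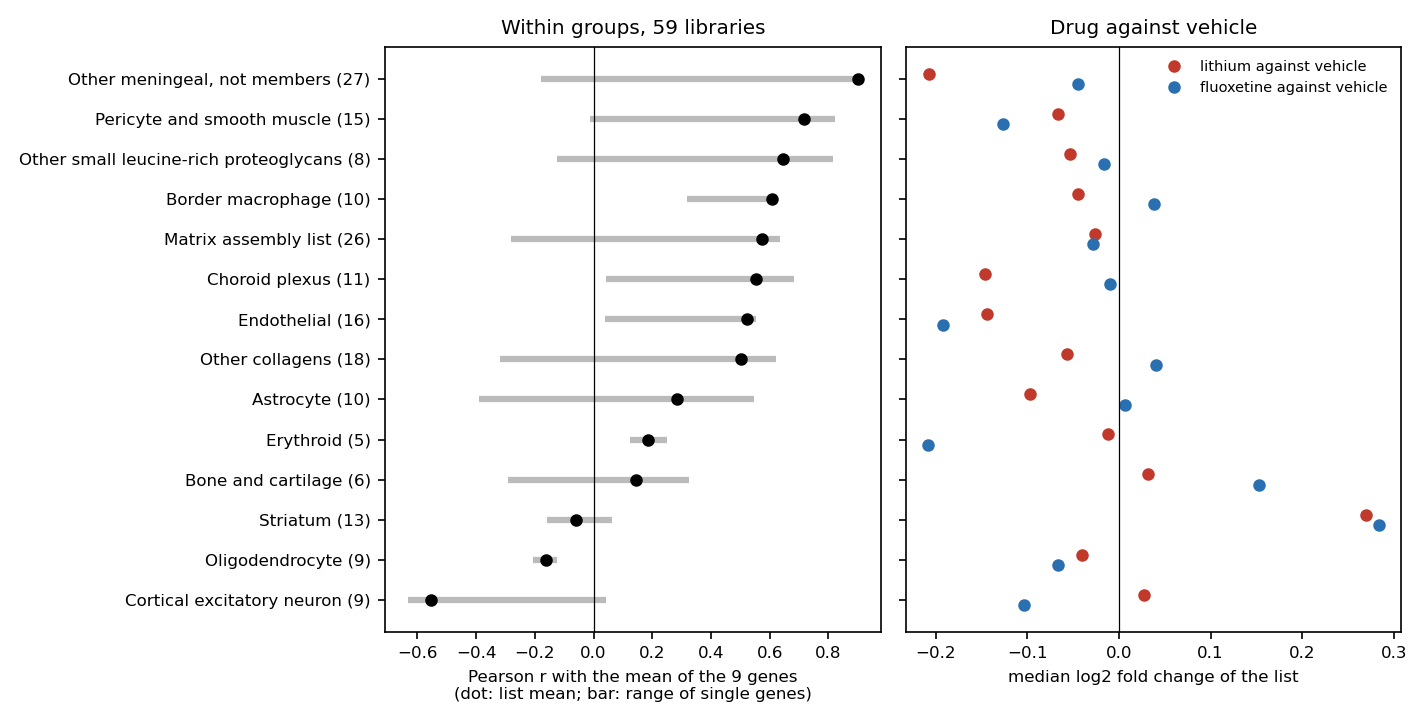
Left, Pearson r of each marker list with the mean of the 9 genes within groups (dot: list mean, bar: range of its single genes; number of genes in brackets); right, median log2 fold change of each list for lithium and fluoxetine against vehicle. The other meningeal list has the highest r, 0.901, and the lowest median with lithium, -0.21.

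The ratios between the genes, 36 pairs in all, were also compared between drug and vehicle, in a permutation test within strata that was added after values had been seen. With lithium 1 of 36 ratios passed: Col1a2 relative to Col3a1 was higher by 0.20 on the log2 scale (two-sided permutation test, p = 0.00052, adjusted p = 0.0187 over 36 pairs). Col1a2 was a member of all 7 pairs with an unadjusted p under 0.05 in lithium, among them Col1a2 relative to Lox (0.30, adjusted p = 0.0788) and to Foxc1 (0.26, adjusted p = 0.132). With fluoxetine, against the same vehicle libraries, none of 36 passed, 3 had an unadjusted p under 0.05, and Col1a2 relative to Col3a1 was 0.20 (permutation test, adjusted p = 0.0515). No ratio of Foxc1 to another member passed for either drug.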

How the data were processed

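Poly(A) RNA of mouse prefrontal cortex was sequenced with a stranded mRNA kit, per the labels' protocols. Per the submitters' processing notes the tools were DESeq2 1.19.11, Salmon 0.11.2 and R 3.6.0, with the build GRCm38; the roles, annotation and strand setting are not stated there. Each value of the deposited table is a signal: the read count of a gene over the size factor of its library. Dividing each column by its smallest step gave whole numbers (tolerance 0.01) for 100% of values, so read counts were recovered. Symbols matched 18077 of 18088 identifiers, and exon lengths came from GENCODE M21.

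Genes with a normalised count of at least 10 in at least 5 libraries (17875) were fitted with limma 3.58.1 (trend, robust variances) on log2(normalised count + 1), with 12 group means over all 59 libraries, in R 4.3.3. The Benjamini-Hochberg adjustment covered every gene tested, with a threshold of 0.05. Scripts were tested on simulated data. Alternatives were edgeR 4.0.16 and DESeq2 1.42.0 on recovered reads, TMM scaling, a pseudocount of 10, no filter, a stricter filter, left-out libraries, the groups compared alone, a replicate block and, added after seeing the data, the averages without 11 libraries whose summed striatal markers exceeded 1.5 times the median. The labels name no sequencing batch, so no within-batch values are given. The members and gene lists were chosen with earlier results of these data known. Beyond the 9 members, named genes are the 10 most correlated with their mean and at most 6 genes per list and comparison past the threshold, by smallest p. No pair of libraries held identical values.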

Additional observations from a re-analysis of the deposited data

Results flagged for a closer look

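In 108 groups of 4 or 5 values (9 genes in 12 groups), 6 single libraries lay far from the others of their group, close to the 5.4 that chance gives at about 1 in 20. Of these, 3 were in HT lithium females: replicate 1 had a Bgn normalised count of 380.4, with the others at 473 to 479; replicate 4 had a Lum count of 73.6, with the others at 40.6 to 44.1; and replicate 3 had an Ogn count of 259, with the others at 158 to 173. In HT fluoxetine males, replicate 2 had a Foxc1 count of 134, with the others at 156 to 163. In WT fluoxetine males, replicate 3 had a Dcn count of 671, with the others at 354 to 413, and replicate 2 had a Lox count of 38.7, with the others at 74.0 to 86.9. No library was far from the others for more than 1 of the 9 genes, and the causes were not tested.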

How the results depend on the processing

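The count of 7 of 9 genes lower with lithium on average was 7 with edgeR, DESeq2, TMM scaling, a pseudocount of 10, no filter, the stricter filter and without the 2 libraries set apart, 6 with the compared groups alone, and 6 to 8 without single libraries. It was 2 without the 11 libraries high in striatal markers, an alternative chosen after seeing the data. The fluoxetine average then again gave 1 gene, with Lum at 0.0091 in place of a negative value, and lithium against fluoxetine 1. Of all genes tested, limma then called 1494 for fluoxetine, against 1179 lower and 1241 higher with all libraries. For lithium against fluoxetine it then called 1503. Foxc1 with lithium lay between -0.45 and -0.41 and Lox between -0.50 and -0.43 over the settings other than single libraries left out, and between -0.47 and -0.41 and between -0.52 and -0.45 without single libraries. With DESeq2 the count in HT males was 2 (1 with limma) and in WT females 1 (0 with limma), and in WT males it was 0 without the 2 libraries set apart and 0 with the compared groups alone (1 with all libraries). The fluoxetine average gave 3 genes with edgeR, 4 with DESeq2 and 2 without the 2 libraries set apart, against 1. Without these 2 libraries, 4 values changed sign, none of them called: Ogn with lithium in WT females became 0.061, Lum with lithium in WT males -0.055, and female against male became -0.0039 for Col1a2 and -0.014 for Lum. Leaving out single libraries gave counts of 0 to 2 for lithium in HT females, 0 to 1 in WT females, 0 to 1 in WT males, 1 to 4 for the fluoxetine average (4 without WT vehicle female replicate 2 or WT vehicle male replicate 4; 3 without HT fluoxetine male replicate 2 or WT fluoxetine female replicate 2; 2 without HT fluoxetine female replicate 4, HT fluoxetine male replicate 3, WT fluoxetine female replicate 5, WT fluoxetine male replicate 1 or 3, HT vehicle female replicate 1 or 3, HT vehicle male replicate 1 or 2, WT vehicle female replicate 4 or WT vehicle male replicate 2), 1 to 2 for fluoxetine in HT males (2 without HT fluoxetine male replicate 2) and 1 to 2 for lithium against fluoxetine. Values that crossed 0 in this way ranged, for lithium, from -0.27 to 0.011 for Lum in HT males, -0.17 to 0.061 for Ogn in WT females, and, in WT males, -0.17 to 0.15 for Col1a2, -0.36 to 0.022 for Dcn, -0.055 to 0.28 for Lum and -0.38 to 0.062 for Ogn; Lum between sexes ranged from -0.0070 to 0.058. Over all genes, DESeq2 called 104 between HT and WT (64 with limma) and 58 between sexes (21), and without HT fluoxetine male replicate 2 the sexes differed in 38. The cause of these differences was not tested, beyond the smaller number of samples in the fits on fewer libraries. The numbers of the replicates did not pair the libraries (mean correlation of deviations -0.0112 for the same number and 0.0028 for different numbers). With a replicate block the lithium average again gave 7 genes, and of the calls in the 9 genes the block added 1, Ogn with lithium in HT females (-0.85, adjusted p = 0.0390), and it changed no other call. DESeq2 gave no adjusted p for some low counts, and these are not counted. Low counts limit Lum and Lox most.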
